A study of Homo sapiens with 4 samples.

Results

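The response of HEK293 cells to short poly I:C was read from 4 single-colour arrays, with 2 transgenic lines standing in as the 2 samples of each group. HEK293 is an immortalized human embryonic kidney line. The LGP2 line carries a transgene for LGP2, an RNA helicase encoded by DHX58, and the LGP2-4KR line carries a form of LGP2 that the labels call 4KR without defining it. Neither the promoter of the transgenes nor whether a line is a single clone was given in the sources used here. Unstimulated cells of each line (0 h) were set against cells of the same line that had been transfected with short poly I:C at 100 ng/ml for 12 h. Short poly I:C is a low molecular weight, synthetic double-stranded RNA, and Lipofectamine carried it into the cells. All 4 arrays thus came from cells with an LGP2 transgene, and none came from the parental line. No mock-transfected cells were analysed here, so the effects of poly I:C, of the transfection reagent and of 12 h in culture cannot be told apart.

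Probes were kept where the deposited table gave a value on both 12 h arrays. This left 21716 of 24460 gene probes, of which 19304 carried a gene name. Averaged by gene they covered 16865 of the 18639 named genes on the array. The rule looks only at the 12 h arrays and so keeps genes that appear at 12 h more readily than genes that disappear. Values on both 12 h arrays but on neither 0 h array were found for 764 probes, and values on both 0 h arrays but on neither 12 h array for 2.

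Double-stranded RNA in the cytosol is sensed by the RIG-I-like receptors RIG-I and MDA5, with LGP2 as a relative that modulates both. RIG-I and MDA5 signal through the mitochondrial adaptor MAVS to the kinases TBK1 and IKK and so to the factors IRF3, IRF7 and NF-kB, which switch on type I and type III interferons and inflammatory cytokines. Secreted interferon signals through JAK kinases to a transcription factor complex with IRF9 that binds interferon-stimulated response elements and induces the antiviral interferon-stimulated genes.

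Ratios are 12 h over 0 h within a line, on the log2 scale after an offset of 50 and quantile normalization. The offset understates the ratios of dim genes. For each gene the deposited intensity of each array is therefore printed first, on the deposited scale, where the median of every array is 25. A gene was called where limma's adjusted p, with the line as a block and Benjamini-Hochberg adjustment over all 16865 genes, was under 0.05. The standard error (SE) of a gene measures only how far the responses of the 2 lines differ, with 1 residual degree of freedom per gene moderated over all genes. Precision is limited by having only 4 arrays. An exact permutation test of 2 arrays against 2 cannot go below a two-sided p of 0.33.

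Between 83.2% and 89.2% of gene probes were detected per array, the 2 higher shares being those at 12 h. Negative control spots lay 1.01 and 1.18 scanner units below the blank spots at 0 h and 0.884 and 0.253 units above them at 12 h, and the part of this shift in the results was not tested. Of 12 genes named as HEK293 markers 11 were measured, with a summed deposited intensity between 1917 and 2522. VIM alone read between 1084 and 1561, so the sum rests mostly on that gene. The median HEK293 marker read between 34.5 and 49.0 per array. Median keratinocyte markers read between 30.2 and 32.6, and median fibroblast markers between 14.7 and 27.7. Leukocyte markers summed to between 56.7 and 64.4 over 7 of 12 genes, and PTPRC, the pan-leukocyte antigen, was not among the genes with values on both 12 h arrays. Endothelial markers summed to between 34.3 and 39.1 over 3 of 5 genes, and fibroblast markers to between 107.9 and 124.1 over 4 of 7. Keratinocyte markers summed to 242.8 and 247.7 at 0 h and to 307.4 and 321.7 at 12 h over 5 of 6 genes, of which none was called. The part of that sum in the results was not tested.

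DHX58, the gene of LGP2 itself, had deposited intensities of 41.4 in the LGP2 line and 22.8 in the LGP2-4KR line at 0 h, and of 51.0 and 42.6 at 12 h. Its mean log2 ratio of 0.20 (SE 0.11) was not called, with a limma adjusted p of 0.32. Whether the DHX58 probe reads the transgene, the native gene or both was not given in the sources used here.

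At 12 h 1443 genes were called higher and 1336 lower, which is 8.56% and 7.92% of the genes tested. All 2779 called genes had the same sign in both lines, which the test favours. Most of these changes were small: the median log2 ratio was 0.35 over the genes called higher and -0.30 over those called lower. The near-even split is that of the main fit, and it moved with the scaling between arrays. With no normalization between arrays 99.8% of the called genes were higher, and so were 93.3% in the deposited table. After the median of all genes was subtracted these shares were 75.7% and 58.7%, against 51.9% in the main fit. That median was 0.19 without normalization and 0.18 in the deposited table, so every ratio here is relative to the bulk of the genes.

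Counts by size leaned to one side. Called and at least 1.5-fold higher in both lines were 179 genes, or 1.06%, and called and at least 1.5-fold lower in both lines were 14, or 0.083%. In both lines 61 genes, or 0.362%, were at least 2-fold higher, and all 61 were called. None was 2-fold lower in both lines. At least 4-fold higher in both lines were 25 genes, and at least 16-fold higher were 8. Nearest inside the 2-fold limit lay a gene listed as UG0898H09, with log2 ratios of 1.01 in the LGP2 line and 1.12 in the LGP2-4KR line, followed by RSAD2, with 1.01 and 1.40, and just outside it lay SERTAD1, with 1.03 and 0.98.

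The responses of both lines lay close to each other. Across genes, which are not independent replicates and whose 4 arrays were normalized together, the log2 ratios of the lines correlated with a Pearson r of 0.84 and a Spearman rho of 0.69. Pearson's r was 0.74 over the 16782 genes that were not 2-fold changed in either line. Among the 61 genes 2-fold higher in both, the difference between the lines (LGP2-4KR minus LGP2) ran from -0.51 to 0.50 with a median of -0.03.

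**Figure D1:**
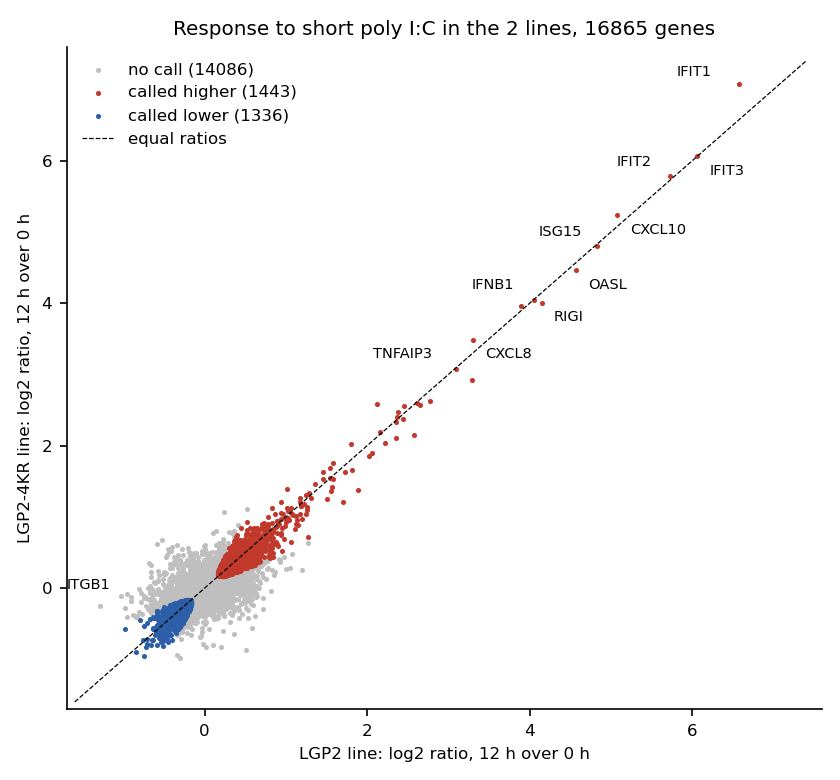
Each point is 1 of 16865 genes, with its log2 ratio of 12 h over 0 h in the LGP2 line on the x axis and in the LGP2-4KR line on the y axis; red genes were called higher (1443), blue genes lower (1336) and grey genes not called. The genes with the highest ratios, led by IFIT1 at 6.58 and 7.08, lie along the dashed line of equal ratios, and ITGB1 at -1.29 and -0.25 lies off it.

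The antiviral interferon-stimulated genes held the highest ratios on the array. Of 58 members tested 45 were called higher and none lower, or 77.6% and 0%, beside 8.56% and 7.92% over all genes. Their median log2 ratio was 0.76 beside -0.01 over all genes. Relative to all genes the median of the list was 0.77, against 1.21 with an offset of 16 and 1.80 with plain subtraction of the background. In the deposited table it was 1.61, over 53 members. In the main fit 21 of the 58 were at least 2-fold higher in both lines. The list was drawn up with earlier results of these data known, so its count is a description and not independent evidence.

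IFIT1, whose protein binds viral RNA that lacks the host cap mark, had deposited intensities of 17.2 in the LGP2 line and 7.8 in the LGP2-4KR line at 0 h. At 12 h they were 4267 and 4312. Its mean log2 ratio was 6.83 (SE 0.14, limma adjusted p 0.0050). The groups were far apart, and the 0 h values differed more between the lines than the 12 h values did.

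IFIT3, a partner of IFIT1, went from 1.6 and 2.6 to 1961 and 1830 in the LGP2 and LGP2-4KR lines, a mean log2 ratio of 6.07 (SE 0.03, limma adjusted p 7.6e-04). IFIT2, measured by 2 probes, went from 9.70 and 11.1 to 2052 and 2002, with log2 ratios of 6.11 and 5.41 by probe. Both probes of IFIT2 were thus among the highest of the array. IFIT5, the fourth gene of this family, reached 206.9 and 197.7 from 42.8 and 44.9, a log2 ratio of 1.54.

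ISG15, a ubiquitin-like modifier, read 70.3 and 78.1 at 0 h and 2907 and 2794 at 12 h, a log2 ratio of 4.81 (SE 0.03, limma adjusted p 7.6e-04). The enzymes of ISG15 conjugation and removal were also higher. HERC5, its ligase, rose from 176.1 and 197.7 to 1006 and 903.4, a log2 ratio of 2.13. USP18, its protease and a brake on interferon receptor signalling, rose from 83.6 and 76.5 to 349.3 and 342.8, with a ratio of 1.67. UBE2L6, its conjugating enzyme, rose by 0.68.

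OASL, a relative of the oligoadenylate synthetases that enhances RIG-I signalling, was not above background on either 0 h array and read 692.1 and 573.2 at 12 h. Its level is at least 22.1-fold higher at 12 h, taking the lowest detected signal of each 0 h array as its limit. Of the enzymatic synthetases OAS1 rose by 0.84, and OAS3 was called higher with 6.50 and 8.55 at 0 h and 77.4 and 70.6 at 12 h. OAS2 read 3.07 and 4.6 at 0 h and 9.0 and 8.2 at 12 h and was not called, with a ratio of 0.15.

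IFI44L, an interferon-induced gene of little known function, went from 2.82 and 4.3 to 298.5 and 218.7, with a log2 ratio of 3.11 (SE 0.10, limma adjusted p 0.012). IFI44, beside it in name and family, was dim at 0 h and read 159.2 and 137.9 at 12 h, at least 5.73-fold higher. IFI6, an antiviral membrane protein, rose from 33.2 and 34.5 to 437.1 and 366.9, a ratio of 2.71. IFITM1, which blocks virus entry at membranes, rose from 101.0 and 116.3 to 718.0 and 720.9, a ratio of 2.35.

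Other antiviral effectors were called with smaller ratios. MX1, a GTPase that traps viral nucleocapsids, read 5.70 and 6.8 at 0 h and 28.1 on both 12 h arrays, and its log2 ratio was 0.65. RSAD2, which makes a chain-terminating nucleotide, read 29.2 and 27.3 at 0 h and 102.1 and 125.3 at 12 h, with a ratio of 1.20. EIF2AK2, the RNA-activated kinase PKR, went from 115.1 and 97.4 to 243.9 and 216.1, with a ratio of 0.79. All 3 were called higher.

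Of the 13 members not called, GBP1 and GBP2, guanylate-binding proteins better known as targets of interferon gamma, had ratios of 0.09 and -0.06. XAF1, RTP4 and LAMP3 had ratios of 0.08, 0.04 and 0.06. IFI35 read 19.9 and 23.6 at 0 h and 56.7 and 41.5 at 12 h, with a ratio of 0.51 and an adjusted p of 0.055.

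**Figure D2:**
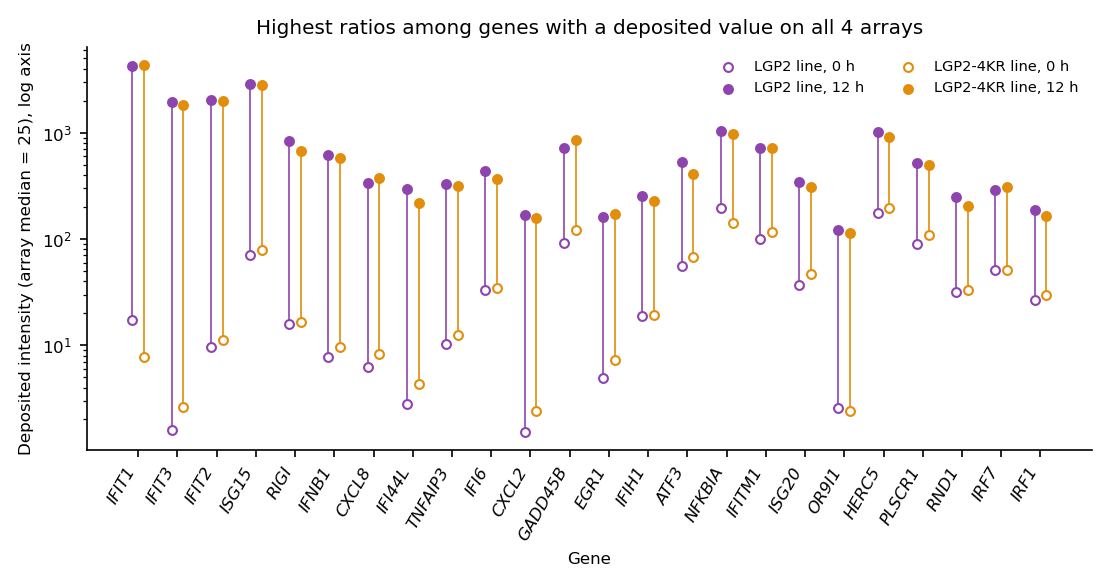
Deposited intensities (log axis, array median 25) of the 24 genes with the highest ratios among the named genes that have a deposited value on all 4 arrays, for the LGP2 line (purple) and the LGP2-4KR line (orange), with open circles at 0 h and filled circles at 12 h. Every 12 h value lies above both 0 h values of its gene, which choosing genes by their ratios favours. The circles of both lines lie close together at 12 h.

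The stretches of promoter ahead of 3 of these genes are shown because the interferon-stimulated response element can be read in them. Each is the 200 bases that end at the base before the RefSeq start (GRCh38.p14), 5′ to 3′ on the gene's strand, with matches to GAAANNGAAA or its reverse complement in capitals. IFIT1 lies at chr10:89392423-89392622 (plus strand), ISG15 at chr1:1013297-1013496 (plus strand) and IFI6 at chr1:27672193-27672392 (minus strand).
IFIT1: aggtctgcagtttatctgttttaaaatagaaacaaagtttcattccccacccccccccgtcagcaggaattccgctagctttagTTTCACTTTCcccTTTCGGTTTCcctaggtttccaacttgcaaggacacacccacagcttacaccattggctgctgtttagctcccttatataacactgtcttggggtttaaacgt
ISG15: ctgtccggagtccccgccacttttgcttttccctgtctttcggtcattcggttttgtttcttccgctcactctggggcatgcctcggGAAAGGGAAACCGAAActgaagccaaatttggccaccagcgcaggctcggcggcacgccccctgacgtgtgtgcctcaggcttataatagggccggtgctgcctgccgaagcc
IFI6: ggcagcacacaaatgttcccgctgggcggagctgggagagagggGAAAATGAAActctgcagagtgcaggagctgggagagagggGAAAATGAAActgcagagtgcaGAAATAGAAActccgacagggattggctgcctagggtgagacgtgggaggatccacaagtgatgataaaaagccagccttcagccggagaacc
IFIT1 held 2 matches, at -116 and -103 from the start, both on the opposite strand. ISG15 held 2 overlapping matches, at -113 and -107, and IFI6 held 3, at -156, -115 and -93.

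Over the 250 bases before the start, 3.48% of the 13263 tested genes with a RefSeq window held this motif on either strand. It was present in 22 of the 51 genes with a window among those 2-fold higher in both lines, or 43.1%, and in 29 of 152 among those called and 1.5-fold higher, or 19.1%. Of the 13 windows of genes called and 1.5-fold lower, 0 held it. These are descriptions of letters and not of bound sites.

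The sensors that detect double-stranded RNA rose with the interferon-stimulated genes, while the adaptors and kinases below them did not pass the test or rose little. Of 23 genes of the RIG-I-like receptor pathway tested 9 were called higher and none lower. These shares of 39.1% and 0% stand beside 8.56% and 7.92% over all genes. The median log2 ratio was 0.10. RIGI, the gene of RIG-I, went from 15.9 and 16.7 at 0 h to 836.1 and 674.9 at 12 h, with a log2 ratio of 4.08 (SE 0.05, limma adjusted p 0.0017). Its 2 probes gave 3.74 and 4.41. IFIH1, the gene of MDA5, went from 18.9 and 19.4 to 256.5 and 226.3, with a ratio of 2.41 (SE 0.04, limma adjusted p 0.0024).

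ZC3HAV1, a zinc finger antiviral protein, rose by 0.63, TRIM25, a ubiquitin ligase that acts on RIG-I, by 0.38, and TRAF3, an adaptor downstream of MAVS, by 0.26. MAVS itself read 6.05 and 6.1 at 0 h and 6.3 and 5.4 at 12 h, with a ratio of -0.07. TBK1 and IKBKE, the kinases of IRF3, had ratios of 0.21 and -0.13 and were not called, and IRF3 had a ratio of -0.08. IRF7, which amplifies interferon transcription, went from 51.3 and 51.5 to 288.8 and 308.4, with a ratio of 1.92 (SE 0.07, limma adjusted p 0.012).

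Among the interferons, IFNB1 and 2 interferon lambda genes were called higher, and no interferon alpha gene was. Of 16 type I and type III genes tested 3 were called, or 18.8%, beside 8.56% called higher over all genes. The median log2 ratio of the 16 was 0.03. IFNB1 went from 7.82 and 9.6 at 0 h to 613.4 and 579.5 at 12 h, with log2 ratios of 4.06 in the LGP2 line and 4.05 in the LGP2-4KR line (SE of the mean 0.03, limma adjusted p 9.4e-04). IFNL1 went from 1.11 and 1.5 to 30.9 and 31.5, and IFNL3 from no value and 1.7 to 43.5 and 41.6. Their log2 ratios were 0.95 and 1.20 after the offset. The interferon lambda genes are related in sequence, and whether their probes share signal was not tested.

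The interferon alpha genes stayed dim. IFNA2 read 10.0 and 10.1 at 0 h and 13.6 and 13.2 at 12 h, with a ratio of 0.05. The highest ratio among them was that of IFNA17, at 0.09, with 3.23 and 4.4 at 0 h and 7.5 and 6.6 at 12 h. The interferon alpha genes are close copies of each other, so signal shared between them cannot be separated here.

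Genes of interferon receptors and of JAK and STAT signalling moved little apart from 3. Of 20 tested 6 were called higher and 2 lower, or 30% and 10%, beside 8.56% and 7.92% over all genes. The median was 0.13. IRF1, a transcription factor of the interferon response, went from 26.5 and 29.9 to 187.3 and 163.9, with a log2 ratio of 1.74. IRF9, the DNA-binding part of the interferon-stimulated complex, went from 2.84 and 3.7 to 54.9 and 50.9, with a ratio of 1.29. USP18 is the third. IFNGR1 and SOCS2 rose by 0.44 and 0.39. The receptor genes IFNAR1 and IFNAR2 had ratios of 0.09 and -0.12 and were not called, and the kinases JAK1 and TYK2 fell by 0.35 and 0.21.

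Chemokines formed the second group of high ratios. Of 30 chemokines and cytokines tested 10 were called higher and none lower, or 33.3% and 0%, beside 8.56% and 7.92% over all genes. The median was 0.05. Most of the list was dim, and its median moved with the background. Relative to all genes it was 0.06, against 0.36 with plain subtraction of the background and 0.11 with an offset of 16. In the deposited table it was 0.04, over 23 genes. CXCL10, which draws activated T cells, was not above background at 0 h and read 940.2 and 919.4 at 12 h, at least 33.1-fold higher. CCL5 was likewise dim at 0 h and read 407.5 and 392.8 at 12 h, at least 14.3-fold higher. CXCL11, which shares the receptor of CXCL10, read 126.7 and 120.5 at 12 h, at least 4.90-fold higher.

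CXCL8, the neutrophil attractant interleukin 8, went from 6.19 and 8.3 to 337.7 and 372.5, with a log2 ratio of 3.40 (SE 0.06, limma adjusted p 0.0035). CXCL2, of the same family, went from 1.54 and 2.4 to 168.2 and 158.1, with a ratio of 2.60. CCL20 and CCL2 reached 21.1 and 27.9 in the LGP2 line and 19.1 and 22.8 in the LGP2-4KR line, and their ratios were 0.70 and 0.65. CXCL9 rose by 0.26 to 11.9 and 12.2. TNF read 4.8 and 4.4 at 12 h, and IL6 stayed between 2.3 and 2.6 on all 4 arrays, with a ratio of -0.05 and no call.

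Among NF-kB subunits and feedback genes, the highest ratios were those of TNFAIP3, NFKBIA and IER3. Of 20 genes tested 9 were called higher and none lower, or 45% and 0%, beside 8.56% and 7.92% over all genes. The median was 0.22. TNFAIP3, the ubiquitin editor A20, went from 10.2 and 12.4 to 329.4 and 314.8, with a log2 ratio of 3.09 (SE 0.03, limma adjusted p 0.0012). NFKBIA, the inhibitor that holds NF-kB in the cytosol, went from 196.2 and 140.8 to 1037 and 983.2, with a ratio of 2.35 (SE 0.13, limma adjusted p 0.021). IER3, an early target of NF-kB, went from 64.7 and 73.3 to 290.6 and 284.0, a ratio of 1.56.

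Of the subunits, RELB and REL rose by 0.76 and 0.55. NFKB1 read 83.7 and 106.7 at 0 h and 225.0 and 170.7 at 12 h and was not called, with log2 ratios of 0.98 and 0.44 and an adjusted p of 0.067. It lies in block 20 of the array, and with the median of each printed block removed it was called, with a limma adjusted p of 0.036. That setting called more genes in general, 1885 higher and 1859 lower against 1443 and 1336 in the main fit. NFKB1's difference between the lines (LGP2-4KR minus LGP2) went from -0.54 to -0.48 there. CYLD, a deubiquitinase that restrains NF-kB, rose by 0.39. RELA and NFKB2 had ratios of 0.01 each.

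The promoters of CXCL10, IFNB1, CXCL8 and TNFAIP3 are shown for their kappa-B motifs. They cover the same 200 bases, with matches to GGAANNNCC on either strand in capitals. CXCL10 lies at chr4:76023498-76023697 (minus strand), IFNB1 at chr9:21077943-21078142 (minus strand), CXCL8 at chr4:73740369-73740568 (plus strand) and TNFAIP3 at chr6:137867059-137867258 (plus strand).
CXCL10: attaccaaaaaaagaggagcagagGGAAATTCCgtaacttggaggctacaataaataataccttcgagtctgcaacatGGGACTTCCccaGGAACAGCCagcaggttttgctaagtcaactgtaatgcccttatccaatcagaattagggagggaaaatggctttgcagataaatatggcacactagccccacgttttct
IFNB1: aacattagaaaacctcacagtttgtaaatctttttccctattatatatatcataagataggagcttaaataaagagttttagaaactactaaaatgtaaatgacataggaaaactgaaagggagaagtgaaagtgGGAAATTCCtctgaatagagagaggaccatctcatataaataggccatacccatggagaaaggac
CXCL8: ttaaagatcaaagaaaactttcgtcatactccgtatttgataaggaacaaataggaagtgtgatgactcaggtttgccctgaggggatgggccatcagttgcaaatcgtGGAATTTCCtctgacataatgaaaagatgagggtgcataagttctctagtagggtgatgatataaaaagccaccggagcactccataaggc
TNFAIP3: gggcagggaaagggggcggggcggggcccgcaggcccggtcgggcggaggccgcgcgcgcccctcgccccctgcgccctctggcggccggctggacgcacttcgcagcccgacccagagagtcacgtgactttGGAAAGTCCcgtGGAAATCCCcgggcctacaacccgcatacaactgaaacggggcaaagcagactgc
CXCL10 held 3 matches, at -176, -122 and -110. IFNB1 and CXCL8 held 1 each, at -65 and -91, and TNFAIP3 held 2, at -67 and -55. This shorter motif is common: 23.7% of the 13263 windows held it. It was in 35.3% of the 51 windows of genes 2-fold higher in both lines. Of the 152 windows of genes called and 1.5-fold higher, 28.3% held it. In the 250 bases before its start CXCL10 also held 1 match to GAAANNGAAA, which the 200 bases shown do not contain.

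Immediate early genes, which respond to many stimuli without new protein synthesis, rose in part. Of 30 tested 12 were called higher and none lower, or 40% and 0%, beside 8.56% and 7.92% over all genes. The median was 0.10. EGR1 went from 4.91 and 7.3 to 160.5 and 170.8, with a log2 ratio of 2.43 (SE 0.04, limma adjusted p 0.0028). ATF3, a stress-induced repressor, went from 55.6 and 67.8 to 533.2 and 410.6, with a ratio of 2.36 (SE 0.12, limma adjusted p 0.020). JUN, a subunit of AP-1, went from 186.0 and 205.0 to 834.2 and 588.4, with ratios of 1.89 in the LGP2 line and 1.38 in the LGP2-4KR line.

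DUSP1, a phosphatase that switches off MAP kinases, rose by 1.06, and KLF6 and KLF4 by 0.77 and 0.73. FOS had a mean ratio of 0.74, but its 2 probes disagreed, one at 1.56 and the other at -0.08. FOSB and EGR3 had ratios of 0.00 and -0.04 and were not called.

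The integrated stress response, in which phosphorylated eIF2 slows translation and favours ATF4, was among the lists with the highest median. Of 26 genes tested 16 were called higher and 1 lower, or 61.5% and 3.85%, beside 8.56% and 7.92% over all genes. The median log2 ratio was 0.42. PPP1R15A, which directs dephosphorylation of eIF2, went from 9.34 and 11 to 93.6 and 80.1, with a ratio of 1.49 (SE 0.05, limma adjusted p 0.012). SLC3A2, the heavy chain of amino acid transporters, went from 229.5 and 283.6 to 884.6 and 700.8, with a ratio of 1.45. DDIT4, CTH and CHAC1 rose by 1.07, 1.05 and 0.96.

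DDIT3, the factor CHOP, rose by 0.45 and ASNS, asparagine synthetase, by 0.35. ATF4 read 1129 and 669.0 at 0 h and 1111 and 1203 at 12 h, and was not called, with ratios of -0.03 in the LGP2 line and 0.49 in the LGP2-4KR line. HSPA5, the chaperone BiP of the endoplasmic reticulum, fell by 0.30. ATF3 belongs to both lists and is counted in each.

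The GADD45 genes rose together. GADD45B went from 92.5 and 120.5 to 713.7 and 860.2, with a log2 ratio of 2.51 (SE 0.04, limma adjusted p 0.0034). GADD45A and GADD45G rose by 1.16 and 0.82. Of 23 p53 targets and GADD45 genes 7 were called higher and 3 lower, with a median of 0.12. PMAIP1, the pro-apoptotic protein NOXA, went from 1435 and 1128 to 3844 and 3122, with a ratio of 1.62. CDKN1A, the classic p53 target p21, had a ratio of -0.19 and was not called, and BAX fell by 0.24, a call lost in 8 of 13 alternative settings of the analysis. Of 20 apoptosis genes 2 were called higher and 1 lower, or 10% and 5%, beside 8.56% and 7.92% over all genes, with a median of 0.02.

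Antigen presentation by MHC class I changed in parts. Of 17 genes tested 5 were called higher and 3 lower, or 29.4% and 17.6%, beside 8.56% and 7.92% over all genes. The median was 0.02. B2M, the light chain of class I molecules, went from 1886 and 2031 to 3967 and 3375, with a log2 ratio of 1.09 (SE 0.07, limma adjusted p 0.022). TAP1, a subunit of the peptide transporter, rose by 1.05. TAP2, the other subunit, had a ratio of 0.55 that was not called, with a limma adjusted p of 0.058. That p was 0.027 with the position correction, a setting that called more genes in general. PSMB9 rose by 0.73 while PSMB8, its partner in the immunoproteasome, fell by 0.38, and the activator subunits PSME1 and PSME2 fell by 0.33 and 0.25.

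Cell cycle and chaperone lists were near 0 as a whole. Of 30 cell cycle genes 8 were called higher and 1 lower, or 26.7% and 3.33%, beside 8.56% and 7.92% over all genes. The cell cycle median was 0.07. That median, taken relative to all genes, was below 0 in the deposited table and with plain subtraction of the background. CDC6 and TK1, genes of DNA replication and nucleotide supply, rose by 0.60 and 0.59, each call being lost in 4 of 13 alternatives. Of 31 chaperones 4 were called higher and 4 lower, or 12.9% each, beside 8.56% and 7.92% over all genes. The chaperone median was 0.00. HSPA1A and HSPA1B, near-identical copies that share signal, rose by 0.67 and 0.48, but ran down to 0.18 and 0.16 under other settings, where 5 and 7 of 13 alternatives lost the call. The endoplasmic reticulum chaperones PDIA4, HSP90B1 and PDIA6 fell by 0.75, 0.48 and 0.46.

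**Figure D3:**
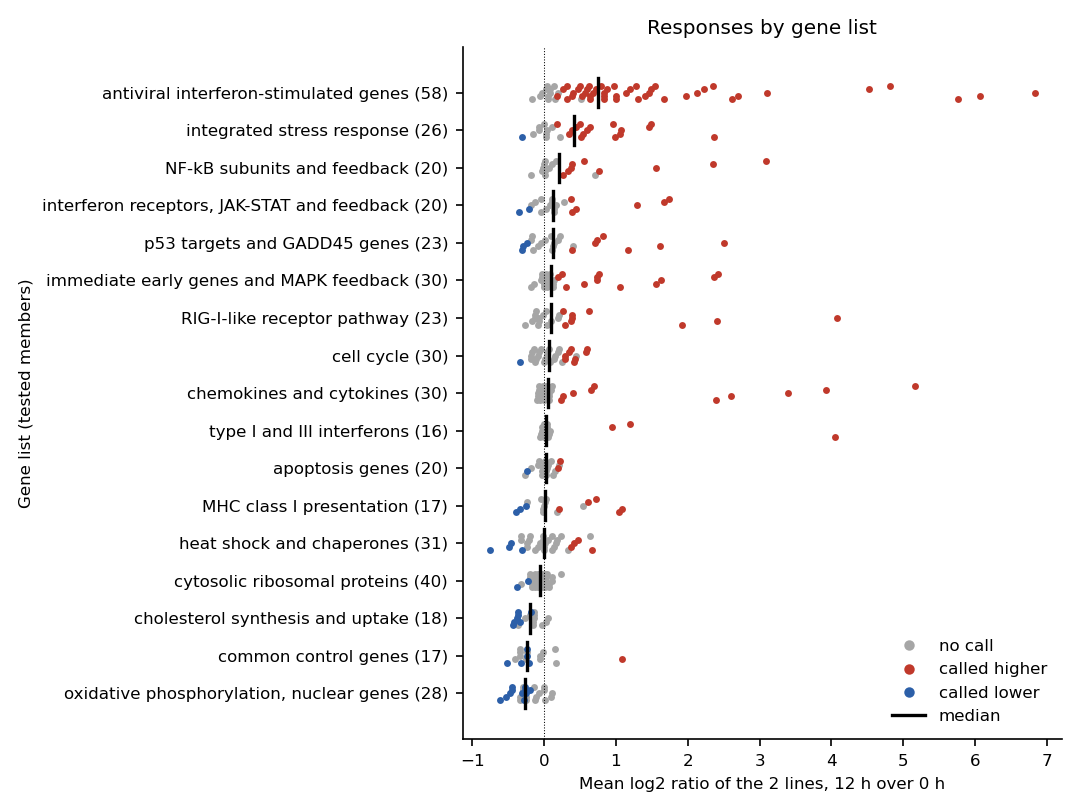
Mean log2 ratio of 12 h over 0 h (x axis) for every tested member of the 17 gene lists (y axis, with the number tested), ordered by the median (black bar); red points were called higher, blue points lower and grey points not called. The antiviral list has the highest median, 0.76, and nuclear genes of oxidative phosphorylation the lowest, -0.27, and the highest points of the chemokine and interferon lists lie far from their medians.

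In the main fit no gene fell 2-fold in the mean of the 2 lines. At least 2-fold lower in the LGP2 line were 2 genes, and in the LGP2-4KR line 0. Under other settings some mean ratios passed 2-fold, with SPARC running down to -1.14. Several genes with the lowest ratios encode matrix and basement membrane proteins. SPARC, a collagen-binding matrix protein, read 131.6 and 141.9 at 0 h and 73.4 and 71.6 at 12 h, with a log2 ratio of -0.87 (SE 0.04, limma adjusted p 0.016). LAMB1, a laminin chain, went from 134.5 and 138.5 to 82.4 and 66.4, with a ratio of -0.85 (SE 0.06, limma adjusted p 0.022). LAMA5, another laminin chain, had a ratio of -0.73, and GPC3, a cell-surface proteoglycan, a ratio of -0.78. All were called. Of 13 alternatives the call was lost in 4 for LAMA5, 2 for GPC3 and 1 for LAMB1.

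The basement membrane collagens COL4A1 and COL4A2, head-to-head neighbours on chromosome 13, fell alike. COL4A1 went from 184.1 and 175.0 to 115.7 and 104.6, with a log2 ratio of -0.74 (SE 0.03, limma adjusted p 0.016). COL4A2 went from 88.7 and 81.5 to 50.5 and 41.7, with a ratio of -0.69 (SE 0.04, limma adjusted p 0.020) and ratios of -0.48 and -0.90 for its 2 probes. The 126 bases between their RefSeq starts, at chr13:110307158-110307283 (GRCh38.p14), are shown on the strand of COL4A2 because the genes are transcribed away from this stretch in both directions.
COL4A1 to COL4A2: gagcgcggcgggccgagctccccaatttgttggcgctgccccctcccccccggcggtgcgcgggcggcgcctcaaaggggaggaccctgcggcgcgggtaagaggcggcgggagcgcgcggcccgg
It is written in lower case throughout because neither motif matched in it.

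Other genes among the lowest ratios were of mixed roles. PDIA4, a disulfide isomerase, went from 449.8 and 429.8 to 290.9 and 244.0, with a ratio of -0.75. NPC2, a lysosomal cholesterol carrier, went from 753.9 and 597.7 to 472.5 and 357.7, with a ratio of -0.71, a call lost in 4 of 13 alternatives. MYH9, a non-muscle myosin heavy chain, and CPE, a carboxypeptidase of secretory granules, fell by 0.68 and 0.65.

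**Figure D4:**
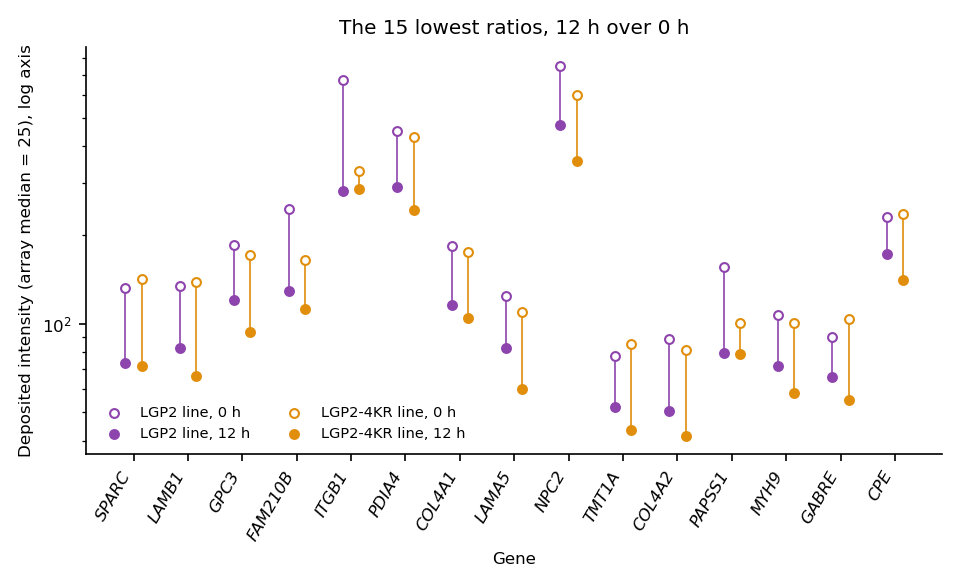
Deposited intensities (log axis, array median 25) of the 15 genes with the lowest mean log2 ratio among those detected on all 4 arrays, for the LGP2 line (purple) and the LGP2-4KR line (orange), with open circles at 0 h and filled circles at 12 h. Every filled circle lies below the open circle of its line; ITGB1 drops far in the LGP2 line only, from 671.6 to 282.1, against 329.0 to 286.5 in the other.

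Nuclear genes of oxidative phosphorylation had the lowest median of the lists, -0.27, with 0 of 28 called higher and 11 lower. These shares of 0% and 39.3% stand beside 8.56% and 7.92% over all genes. NDUFV1 of complex I went from 472.2 and 460.8 to 347.6 and 285.2, with a log2 ratio of -0.61 (SE 0.05, limma adjusted p 0.023). UQCRC2 of complex III fell by 0.53 and SDHC of complex II by 0.45, a call lost in 5 of 13 alternatives. Of 18 genes of cholesterol synthesis and uptake 0 were called higher and 7 lower, or 0% and 38.9%, with a median of -0.19. MSMO1 fell by 0.42, HMGCS1 by 0.41 and INSIG1 by 0.38. Over 13 alternatives these calls were lost 4, 5 and 7 times, and the ratios ran up to -0.17, -0.14 and -0.11.

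These small falls lie where calls in both directions were common. Of the fifth of genes with the highest level 20.5% were called lower and 13.2% higher. Of the fifth with the lowest level 0% were called lower and 1.87% higher. Genes often used as controls moved the same way, with a median of -0.23. Of 17 such genes 5 were called lower and 1 higher, or 29.4% and 5.88%, beside 7.92% and 8.56% over all genes. EEF1A1 fell by 0.52, ACTB had a ratio of -0.40 that was not called, and B2M is the one that rose. Of 40 cytosolic ribosomal protein genes 2 were called lower, or 5%, beside 7.92% over all genes, with a median of -0.05.

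The size of these medians moved with the scaling. Relative to all genes, the control genes had a median of -0.22, which was -0.43 in the deposited table, -0.47 with plain subtraction of the background and -0.07 with no normalization between arrays. Without that subtraction of the all-gene median, it was 0.12 with no normalization. The ribosomal protein genes had a relative median of -0.04, which was -0.48, -0.51 and -0.12 in the same order. For oxidative phosphorylation the relative median was -0.26, against -0.56, -0.59 and -0.20, and for the cholesterol genes -0.18, against -0.36, -0.40 and -0.07. All 4 lists thus stayed below the median of all genes under these settings, by amounts that differed several-fold.

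The lines differed on some genes, and part of these differences moved with place on the array. The median log2 ratio of the probes in printed blocks 20, 21 and 24 was 0.12, 0.08 and -0.12 in the LGP2 line, against 0.01, -0.02 and 0.04 in the LGP2-4KR line. IFIT1 and NFKBIA, both in block 24, had higher log2 ratios in the LGP2-4KR line, with differences (LGP2-4KR minus LGP2) of 0.50 and 0.47. JUN in block 20 and SLC3A2 in block 21 had higher ratios in the LGP2 line, with differences of -0.51 and -0.50. With the median of each block removed these 4 differences were 0.38, 0.35, -0.45 and -0.43.

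ITGB1, an integrin chain that binds laminin and collagen, had the widest gap among the genes of lowest ratio, with -1.29 in the LGP2 line and -0.25 in the LGP2-4KR line. It lies in block 24, its adjusted p was 0.18, and the gap was 0.92 with the position correction. PAPSS1, in the same block, had ratios of -0.96 and -0.40 and was not called, with a limma adjusted p of 0.075. It was called with the position correction, at 0.030, a setting that called more genes in general. At least 2-fold higher in the LGP2 line alone were 13 genes and in the LGP2-4KR line alone 7. With 1 array per line and time, a difference between the lines has no replicate check and was not tested.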

How the data were processed

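Per the labels' protocols, total RNA was extracted with TRIZOL, amplified to amino allyl aRNA and coupled to Cy5. Per the file headers, the deposited scanner files give the median intensity of 27456 spots per array, linear and not normalized. The authors' series table gives intensities too: checked against the scanner files, they are spot medians less roughly the mean blank spot (384 spots), scaled to an array median of 25. It holds no value for many dim probes, and the sources used here give no rule for that.

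The analysis started from the scanner intensities, since the deposited table has no values for dim probes. The array's mean blank spot served as background, because the column headed as background followed the signal with r between 0.991 and 0.997. limma 3.58.1 in R 4.3.3 gave normexp correction with an offset of 50, quantile normalization over the 4 arrays and log2 values, which were averaged over the probes of a gene (2309 genes had several). A probe was detected when it exceeded the mean blank spot by 2 SD. The fit had terms for line and time, with eBayes moderation (prior SD 0.037, prior degrees of freedom 2.38) and Benjamini-Hochberg adjustment over 16865 genes. The line, which the labels name for each sample, is the pairing of the samples. Fold changes of genes dim on both 0 h arrays are lower bounds. No coordinates come from the arrays; promoter windows come from RefSeq (GRCh38.p14), matched by gene identifier for 13263 genes. The fit was tested on simulated data. The figures were drawn with matplotlib 3.10.9.

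The members and lists were chosen with earlier results of these data known. Named were the 25 called genes with the largest ratios among those detected on all 4 arrays, the 10 with the largest lower bound, the 15 with the lowest ratios, the 10 highest transcription regulators of the lists, the 5 with the largest difference between lines in each direction, up to 5 of each of the 17 lists, and DHX58. Genes outside this rule, such as MX1, MAVS or IL6, are list members named after their values were seen. Alternatives covered the background correction, normalization, position on the array, filter, spread, line term and each array left out.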

Additional observations from a re-analysis of the deposited data

Results flagged for a closer look

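Of the 2412 member probes without a gene name, which no comparison by gene used, 3 were at least 2-fold higher in both lines and 0 were 2-fold lower in both. The largest mean log2 ratio among them was 1.96. They stood out as signal outside the named genes that exceeded the 0 h arrays in both lines. Their genes are not known here.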

How the results depend on the processing

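No named gene that was called changed sign under the alternatives that were checked gene by gene. No normalization and the deposited table were checked in this way only after the median of all genes was subtracted. Signs without that subtraction were not checked. Counts moved most with background and scaling. The deposited table gave 3121 genes called higher and 223 lower, with 248 genes 2-fold higher in both lines and 1176 called and 1.5-fold higher. An offset of 16 gave 305 called and 1.5-fold higher and 34 lower. Plain subtraction gave 358 called higher and 7 lower, all of them 1.5-fold changed, with 464 genes 2-fold higher and 2 lower in both lines. No normalization gave 6945 higher and 17 lower, 146 genes 2-fold higher, 1051 called and 1.5-fold higher, and 0 called and 1.5-fold lower. Relative to the median of all genes, chosen after seeing the data, no normalization gave 4432 called higher, 491 of them 1.5-fold higher, and 1 called and 1.5-fold lower. The deposited table on that footing gave 153 genes 2-fold higher and 1 lower in both lines, 599 called and 1.5-fold higher and 134 lower. With each array left out in turn, in a fit with no line term that assumes the lone array varies like the others, 441 to 721 genes were called higher and 193 to 522 lower. The fewest came without the stimulated LGP2-4KR array; 143 of the 179 genes called and 1.5-fold higher and 9 of the 14 lower stayed called there. The 2-fold counts have no such value, since 1 line then has no ratio. Without the replicate block for line, 1697 genes were called higher and 1586 lower, and the paired and unpaired fits shared 178 of the 179 and all 14. Of the 179, 171 stayed called in the deposited table, 179 with an offset of 16 and 102 with plain subtraction. Among the named genes that were called, plain subtraction lost 46 calls and leaving out an array 20 to 33. At an unadjusted limma p under 0.05 there were 2663 genes higher and 2990 lower. The causes of these shifts were not tested. With an array left out, the smaller number of arrays and the missing line term cannot be told apart.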

Other observations

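Gene families were also read by name pattern. They were picked after their values were seen, out of 21 families looked at, so the counts are descriptions. Over all genes 8.56% were called higher and 7.92% lower.

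ZNF zinc finger genes, most of which encode DNA-binding repressors, made the widest group: 169 of 417 were called higher and 3 lower, with a median log2 ratio of 0.16. ZNF239 read 144.2 and 140.0 at 0 h and 317.5 and 355.3 at 12 h in the LGP2 and LGP2-4KR lines, a ratio of 0.97, and ZNF689 and ZNF721 had ratios of 0.90 and 0.83. SNHG genes, which host small nucleolar RNAs in their introns, were called higher in 4 of 5 cases. SNHG17 went from 217.1 and 251.9 to 859.9 and 846.3, a ratio of 1.68, and SNHG12 and SNHG32 had ratios of 0.78 and 0.82. ZFAS1, another such host, had a ratio of 1.07. Of 11 SRSF splicing factors 5 were called higher and none lower, led by SRSF2 at 0.61. Of 60 core histone genes 15 were called higher and 1 lower, and H2AC6 went from 19.9 and 26.3 to 77.0 and 77.4, a ratio of 0.93. Histone genes are close copies, so signal may be shared among them.

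Of 16 collagen IV and laminin chains 7 were called lower and none higher, with a median of -0.18; beside the chains described in the report these include LAMA4 at -0.59 and LAMC1 at -0.49. Of 26 SEC and COP genes of the translocon and vesicle coats 10 were called lower and none higher, with a median of -0.13, which relative to all genes was 0.02 with no normalization. COPA and SEC23A had ratios of -0.40 and -0.34. Of 5 PDIA disulfide isomerases 3 were called lower. Of lysosomal families, 2 of 15 cathepsins and 4 of 25 ATP6 proton pump genes were called lower, or 13.3% and 16%. Olfactory receptors, with 2 of 256 called higher and 4 lower, stayed near 0, except OR9I1, which went from 2.59 and 2.4 to 121.1 and 113.5, a ratio of 2.17 with a limma adjusted p of 0.0024.

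Several genes on none of the lists were also 2-fold higher in both lines. PTGS2, the inducible cyclooxygenase, went from 1.81 and 1.9 to 44.1 and 43.1. TNFRSF9, a receptor of the tumour necrosis factor family, went from 5.31 and 8.3 to 71.4 and 88.7. SAT1, an enzyme of polyamine breakdown, went from 1385 and 1376 to 2926 and 2916. RND1, a small GTPase, went from 31.4 and 33.3 to 246.8 and 206.5. Their log2 ratios were 1.19, 1.55, 1.22 and 1.94.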
